A study of Mus musculus with 23 samples.

Results

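Open chromatin was compared between 2 consecutive days in control 3T3-L1 preadipocytes, an established mouse line that can be turned into fat cells. All 8 libraries came from cells that had received 50 nM of a non-targeting (scramble) siRNA by lipid transfection while sub-confluent, so no untreated cells entered the comparison. Nuclei were collected 24 hours later, on day -2, in 4 libraries, and 48 hours later, on day -1, in the other 4. They are 8 of 23 libraries in the series, and 4 libraries per day with siRNA against Kdm5c, a demethylase of histone H3, served as a second pair of groups. Assay for transposase-accessible chromatin (ATAC-seq) was the method: a transposase cuts and tags open DNA, and the reads are counted in peaks. The labels do not say that replicates came from separate cultures, so a p-value here reflects the scatter among these libraries alone, and that scatter may be technical.

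Preadipocytes stop dividing when they touch each other, and only then respond fully to the hormones that start fat cell formation. The early response is carried by C/EBPβ and C/EBPδ, which act before C/EBPα and PPARγ, the factors of the mature fat cell. Promoters of active genes are open in most cells of a culture, whereas distal elements, where such factors often bind, tend to open and close with cell state.

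The authors called peaks separately for each day, so the regions counted on day -2 were not those counted on day -1. Nuclear peaks were therefore matched 1 to 1 where they overlapped by at least 50% of both. This gave 18954 matched peaks, which were 22.6% of the 84016 nuclear peaks of day -2 and 59.3% of the 31966 of day -1. A peak belonged to the promoter class where the authors gave it the same gene on both days (7642 peaks), and to the other peaks where they gave it none (11224 peaks). The remaining 88 were mixed. A start of transcription listed in RefSeq for a protein-coding gene lay inside 76.1% of promoter-class peaks and 7.26% of other peaks. The promoter class therefore rests on the authors' gene names. A level is the count per kb of peak per 1000000 matched nuclear counts, after scaling by the trimmed mean of M values (TMM). Collection day, peak set and count depth changed together between the groups and cannot be told apart. In a bulk culture, more cells with an open site and more opening per cell cannot be told apart either.

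The promoters of 6 genes at which the 2 days differed are shown first, from RefSeq (GRCm38.p6), each 300 bases from 250 before the start of transcription. Ube3a, Ufl1 and Eno1 are higher examples that kept their call under 7 ways of scaling, width treatment and testing, Cebpb is the adipogenic example, and Wipf1 and Nolc1 are lower ones. Capitals mark exact matches on either strand to 5 motifs. GGGCGG is the GC box bound by SP and KLF factors, and CCAAT is the box bound by NF-Y. The letters searched for ETS factors were CCGGAAG, those for AP-1 were TGACTCA, and those for E2F were TTCCCGCC or TTTGGCGC. Overlapping matches run together in the capitals.
Ube3a (chr7:59228500-59228799, plus strand): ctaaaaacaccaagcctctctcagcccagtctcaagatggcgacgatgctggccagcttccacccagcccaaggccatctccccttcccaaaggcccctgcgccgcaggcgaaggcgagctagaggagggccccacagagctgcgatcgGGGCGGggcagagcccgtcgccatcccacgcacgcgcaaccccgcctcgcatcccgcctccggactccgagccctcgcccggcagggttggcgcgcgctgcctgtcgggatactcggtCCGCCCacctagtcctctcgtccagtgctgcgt
Ufl1 (chr4:25281772-25282071, minus strand): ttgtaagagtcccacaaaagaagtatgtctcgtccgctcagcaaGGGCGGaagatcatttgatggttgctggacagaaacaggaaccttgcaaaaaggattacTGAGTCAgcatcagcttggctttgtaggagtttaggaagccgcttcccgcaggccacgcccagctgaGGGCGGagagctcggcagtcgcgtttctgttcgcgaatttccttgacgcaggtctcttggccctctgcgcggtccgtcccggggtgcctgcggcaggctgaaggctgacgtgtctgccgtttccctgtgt
Eno1 (chr4:150236947-150237246, plus strand): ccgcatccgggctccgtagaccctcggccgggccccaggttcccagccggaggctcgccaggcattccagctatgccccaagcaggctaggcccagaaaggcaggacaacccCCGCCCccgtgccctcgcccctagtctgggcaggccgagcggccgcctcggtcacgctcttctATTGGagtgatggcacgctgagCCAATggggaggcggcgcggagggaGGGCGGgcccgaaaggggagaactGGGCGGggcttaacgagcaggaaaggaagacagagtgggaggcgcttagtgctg
Cebpb (chr2:167688665-167688964, plus strand): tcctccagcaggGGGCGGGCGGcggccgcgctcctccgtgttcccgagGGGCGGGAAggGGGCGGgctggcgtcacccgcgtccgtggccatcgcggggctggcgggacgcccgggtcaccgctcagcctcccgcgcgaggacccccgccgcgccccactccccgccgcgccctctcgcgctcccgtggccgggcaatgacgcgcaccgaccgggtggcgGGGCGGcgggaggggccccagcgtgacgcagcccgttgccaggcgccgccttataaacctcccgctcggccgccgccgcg
Wipf1 (chr2:73529438-73529737, minus strand): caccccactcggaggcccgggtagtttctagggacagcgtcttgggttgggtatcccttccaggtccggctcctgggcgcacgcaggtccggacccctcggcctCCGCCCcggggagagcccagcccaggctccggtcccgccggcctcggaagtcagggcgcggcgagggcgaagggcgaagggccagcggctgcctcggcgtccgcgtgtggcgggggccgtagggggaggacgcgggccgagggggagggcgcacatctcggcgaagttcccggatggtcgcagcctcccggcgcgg
Nolc1 (chr19:46075597-46075896, plus strand): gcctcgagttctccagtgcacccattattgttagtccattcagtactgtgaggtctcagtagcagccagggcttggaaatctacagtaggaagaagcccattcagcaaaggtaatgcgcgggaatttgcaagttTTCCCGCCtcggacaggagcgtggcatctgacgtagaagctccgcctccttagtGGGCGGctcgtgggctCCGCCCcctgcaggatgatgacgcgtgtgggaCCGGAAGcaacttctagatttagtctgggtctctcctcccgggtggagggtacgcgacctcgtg

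The GC box stands in all 6 of these promoters, with 5 matches at Cebpb and 1 at Wipf1. Eno1 also holds 2 CCAAT boxes, Ufl1 an AP-1 match, Cebpb an E2F match that overlaps a GC box, and Nolc1 an E2F and an ETS match. Sequences could be matched to 149 of the 208 promoter-class peaks that rose, to 32 of the 55 that fell and to 5304 of the 7578 tested. A GC box was present in 77.2% of the risen promoters, 24 of the 32 fallen ones and 74.4% of the tested promoters, against 35.7% of all 32851 promoters of this length in the table. CCAAT was found in 40.9%, 46.9% and 42.1% (37.4% of all), and the ETS letters in 17.4%, 21.9% and 21.3% (8.86% of all). The E2F letters were in 5.37% of the risen and 12.5% of the fallen promoters, which is 8 and 4 promoters, and in 6.32% of those tested (2.68% of all). The AP-1 letters were in 6 and 2 promoters, and in 2.92% of those tested (5.20% of all). Median GC content was 63.7%, 62.7% and 62.7%, against 52.7% over the whole table. The median promoter held 24 CpG pairs among those tested and 7 over the whole table. Across 5 bins of GC content of equal size the median log2 change lay between 0.04 and 0.08.

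Counts in peaks summed to 6387992 to 12222886 per library on day -2 and to 11562925 to 14913397 on day -1, most of them mitochondrial. The nuclear part was 1816082 to 2983369 counts on day -2 and 781309 to 1156416 on day -1, of which matched peaks held 1137630 to 1803195 and 659519 to 981315. The median tested peak had 53 counts per library on day -2 and 30 on day -1. Promoter-class peaks were measured at 9 of 15 fibroblast and preadipocyte markers, at Lyz2 alone among 10 macrophage markers and at Flt1 alone among 10 endothelial ones, and at none of 10 epithelial, 10 muscle and 10 neural markers. Measured peaks had to be matched between days. Before matching, the authors named a peak on day -2 at 12 fibroblast, 3 macrophage, 4 endothelial, 2 epithelial, 4 muscle and 2 neural markers. On day -1 these numbers were 11, 1, 2, 0, 0 and 0. No measured marker of any of these cell types was called different between days by edgeR. An unadjusted p under 0.05 was seen at 1 fibroblast marker and Lyz2, and at 3426 of all 18223 tested peaks. The Lyz2 peak lies in the high-count stretch of chromosome 10 described below. Its mean level on day -2 was 348, against a median of 68.8 in the promoter class. Col1a2 (a collagen chain) and Twist1, the most abundant of the measured fibroblast markers, had log2 changes of -0.12 and 0.18. An open promoter does not show that its gene is transcribed.

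Mitochondrial DNA took a larger share of the counts on day -1. Its share was 70.4%, 76.3%, 71.8% and 75.6% in the 4 libraries of day -2 and 90.9%, 92.2%, 93.2% and 92.9% in those of day -1. All libraries of day -1 lay above all of day -2, with means of 73.5 ± 2.85% and 92.3 ± 1.01% (SD, n = 4), and the ratio of mitochondrial to nuclear counts was 4.34-fold higher. The two-sided exact permutation test gave p = 0.0286, the smallest that 4 against 4 allows, and 0.0476 after Benjamini-Hochberg adjustment over 5 measures. Nuclear counts lay more in the matched peaks and more in the strongest of them on day -1. Matched peaks held 61.9 ± 1.59% of them on day -2 and 84.7 ± 0.574% on day -1, and the 1000 most abundant matched peaks took 26.2 ± 0.758% and 30.0 ± 1.16% of matched counts, with the same adjusted p for each. The matched share, the mitochondrial share and the mitochondrial to nuclear ratio all depend on the peaks called on each day. Nuclear peaks covered 26991.5 kb on day -2 and 14131.7 kb on day -1. Within the matched peaks, the promoter class held 49.5 ± 0.473% and 49.8 ± 1.00% (exact permutation p = 0.743), and its libraries overlapped. Chromosome X held 1.65 ± 0.0505% and 1.67 ± 0.0778% (exact permutation p = 0.6).

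**Figure D1:**
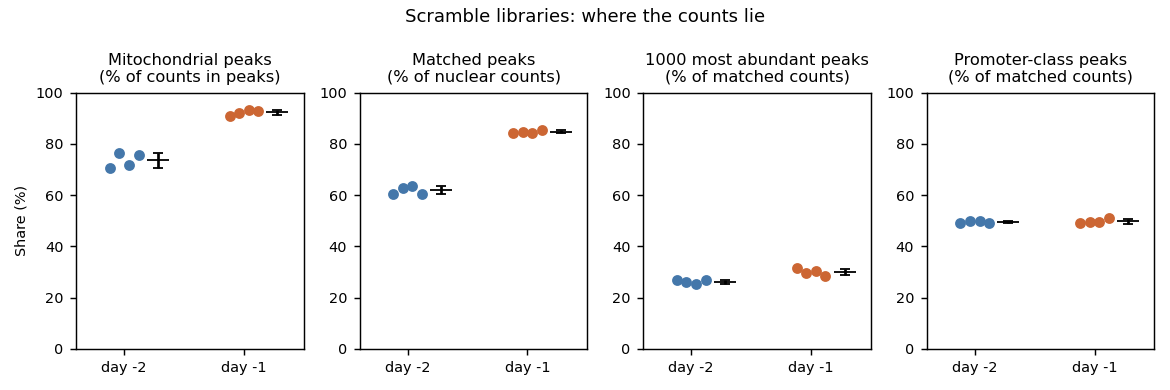
Share of counts in percent for each scramble library (points; blue day -2, orange day -1) with the mean and SD of 4 libraries beside them. The mitochondrial and matched shares do not overlap between days, whereas the promoter-class share lies near 50% on both.

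Most matched peaks were not called different between the days, and the calls were spread over both directions. Of 18223 tested, 832 were called by the quasi-likelihood test of edgeR at an adjusted p under 0.05 (4.57%). There were 422 higher on day -1 (2.32%) and 410 lower (2.25%), and 3426 had an unadjusted p under 0.05. Only 50 of the risen and 121 of the fallen peaks changed by at least 2-fold. In 1847 tested peaks (10.1%) the 4 libraries of one day did not overlap the 4 of the other. Every fold change is relative to the bulk of matched peaks, whose median the TMM scaling set near 0. With plain totals of matched counts the split was 974 higher and 271 lower, with the median peak at 0.11, and with totals over all nuclear peaks it was 9724 and 47, with the median at 0.56. Without day -2 replicate 2, 3 or 4 the number of calls fell to 467, 456 and 520.

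Calls in the promoter class were mostly higher on day -1, and calls at other peaks mostly lower. Among 7578 tested promoter-class peaks, 208 rose (2.74%) and 55 fell (0.726%), with a median log2 change of 0.06. Among 10559 other peaks, 212 rose (2.01%) and 354 fell (3.35%), with a median of -0.04. The class medians differed by 0.0946 on the log2 scale, and their difference varied between libraries of a day with an SD of 0.0168. Other peaks within 1 kb of a start in the RefSeq promoter table had 25 higher and 7 lower calls of 1029. At 10 to 50 kb there were 74 higher and 138 lower of 3509, and beyond 50 kb 79 and 167 of 4271. That table does not hold every start, so these distances are upper limits.

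Peak width moved with these results. Matched peaks were narrower on day -1, with a median width ratio of 0.882, and 69.7% were wider on day -2. Promoter-class peaks that rose had a median ratio of 0.690 and those that fell of 1.27. Across the 18223 peaks, the log2 width ratio and the log2 change of level had Pearson's r = -0.38, a description in which width also enters the level. With an offset that follows the width ratio, 184 peaks were called higher and 196 lower, and without width 807 and 735. Calls in the same direction under all 3 treatments of width numbered 240. Among them were 33 higher and 9 lower promoters, and 65 higher and 132 lower other peaks. Here and in the next count the mixed class makes up the rest. Among 7 settings of scaling, width and test, 164 were called the same way throughout. They held 22 higher and 4 lower promoters and 50 higher and 87 lower other peaks. Totals over all nuclear peaks were not among the 7. Promoters were more often higher than lower, and other peaks more often lower than higher, in each of these counts. That holds with DESeq2 too (promoters 128 and 21), but with plain totals of matched counts other peaks were called higher more often than lower (444 against 243), as with totals over all nuclear peaks.

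**Figure D2:**
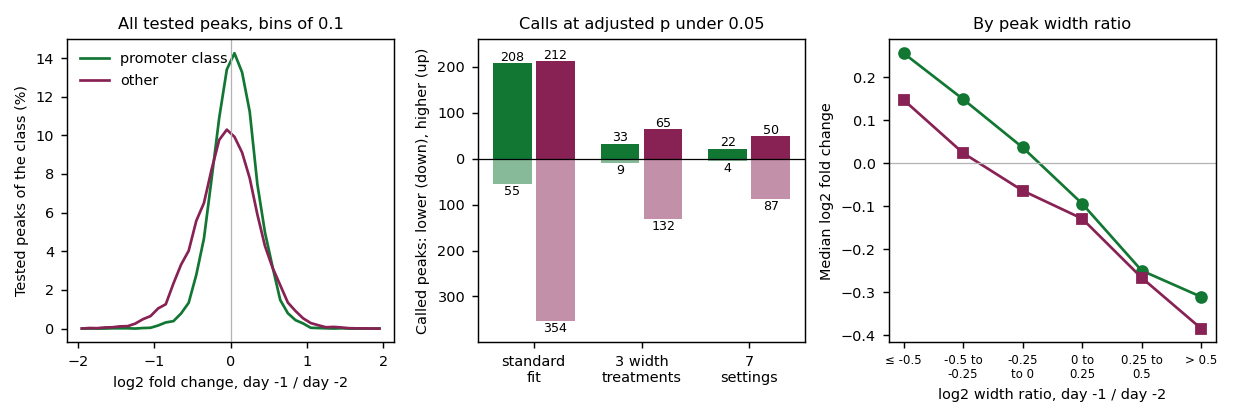
Left, share of tested peaks by log2 fold change (day -1 over day -2) in the promoter class (green) and the other peaks (purple); middle, numbers called higher (up, dark) and lower (down, pale) under the fit used here, under all 3 treatments of width and under all 7 settings; right, median log2 fold change by log2 width ratio. Promoter calls lean upward (208 against 55) and other calls downward (354 against 212), and both medians fall as peaks widen on day -1.

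The 10 promoter-class peaks named as higher were those with the largest change among called peaks above the median abundance, with widths within 1.2 times of each other and days that did not overlap. They belonged to Pisd-ps2, Depdc1a, Ube3a, Ufl1, Pex26, Zfp937, Nckap5l, Eno1, Mrpl50 and Btbd3, with log2 changes from 0.95 down to 0.54. The rule used the change itself, so their values are a description. Ube3a encodes a ubiquitin ligase. Its peak, chr7:59228158-59229490 (here and below as deposited for day -1, GRCm38, with the first base of the count not given in the sources used here), had levels of 71.8, 90.6, 74.7 and 60.9 on day -2 and of 116, 96.2, 122 and 137 on day -1. Every library of day -1 was above every one of day -2. The log2 change was 0.67 (SE 0.132, edgeR adjusted p = 0.000326). Ufl1 encodes the ligase that attaches the small modifier UFM1 to proteins. At chr4:25281194-25282113, levels were 63.1, 79.2, 72.6 and 73.8, then 112, 127, 89.8 and 124, again without overlap. This is a log2 change of 0.66 (SE 0.151, edgeR adjusted p = 0.00282). Both calls were kept when any 1 library was left out and under all 7 settings.

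Eno1, the glycolytic enolase, had levels of 74.1, 65.7, 92.6 and 85.8 on day -2 and of 134, 97.9, 109 and 130.1 on day -1 at chr4:150236632-150237501. The lowest library of day -1 stood just above the highest of day -2, and the log2 change was 0.55 (SE 0.15, edgeR adjusted p = 0.015). Its call was lost without day -2 replicate 2, day -1 replicate 1 or day -1 replicate 4, where the adjusted p reached 0.0804. Btbd3, a BTB-domain protein known from the orientation of neuronal dendrites, rose by 0.54 (SE 0.133, edgeR adjusted p = 0.00665), from levels of 69.3 to 99.2 to levels of 115 to 137. This call was lost only without day -2 replicate 4 (adjusted p = 0.0767). Depdc1a, needed in mitosis, rose by 0.71 (edgeR adjusted p = 0.0244), and its day -1 replicate 2 stood at 127 against 67.5 to 86.6 in the others. Without that library the change was 0.46, with an adjusted p of 0.279, and the call was also lost without day -2 replicate 1 or 3. Pex26 (anchor of the peroxisomal import machinery), Zfp937 (a zinc finger protein), Nckap5l and Mrpl50 (a protein of the mitochondrial ribosome) rose by 0.54 to 0.62. Each of these last 4 kept its call in only 2 or 3 of the 8 fits that left out a library. Pisd-ps2 is a transcribed pseudogene whose reads may be split among near-identical copies, so its rise of 0.95 is uncertain, although the call was kept when any 1 library was left out and under all 7 settings.

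Only 9 promoter-class peaks met the same rule in the other direction. Parp16 fell by 0.81 on the log2 scale (SE 0.214, edgeR adjusted p = 0.0124), Mkln1 by 0.68, Wipf1 by 0.65, Tmem115 by 0.62, Dcp1b by 0.60, Nolc1 by 0.59, Eea1 by 0.57, Pnn by 0.47 and Tom1 by 0.38. They encode proteins of unlike function, among them an ADP-ribosyltransferase of the endoplasmic reticulum (Parp16), a partner of WASP in actin assembly (Wipf1), a Golgi membrane protein (Tmem115), an mRNA decapping cofactor (Dcp1b), a nucleolar phosphoprotein (Nolc1), a tether of early endosomes (Eea1) and a splicing-associated protein (Pnn). The peak that the authors named Parp16 lay outside that gene, 17.991 kb from its nearest listed start. The gene nearest to it was Igdcc3, at 8582 bases. At Wipf1, chr2:73528731-73529752, levels were 72.2, 65.0, 58.7 and 60.9 on day -2 and 34.9, 41.2, 40.4 and 46.0 on day -1. The groups did not overlap, and the adjusted p of edgeR was 0.0238. At Nolc1, chr19:46075537-46076300, they were 77.6, 89.0, 95.9 and 94.1 and then 50.7, 68.0, 67.6 and 52.8, also without overlap (edgeR adjusted p = 0.0434). None of the 9 kept its call in all 8 fits that left out a library: Parp16 kept it in 6, Wipf1 in 5, Dcp1b in 4, and the others in 1 to 3. Wipf1 alone of the 9 was called under all 3 treatments of width. Relative to totals over all nuclear peaks, Pnn and Tom1 had positive values, 0.09 and 0.17.

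**Figure D3:**
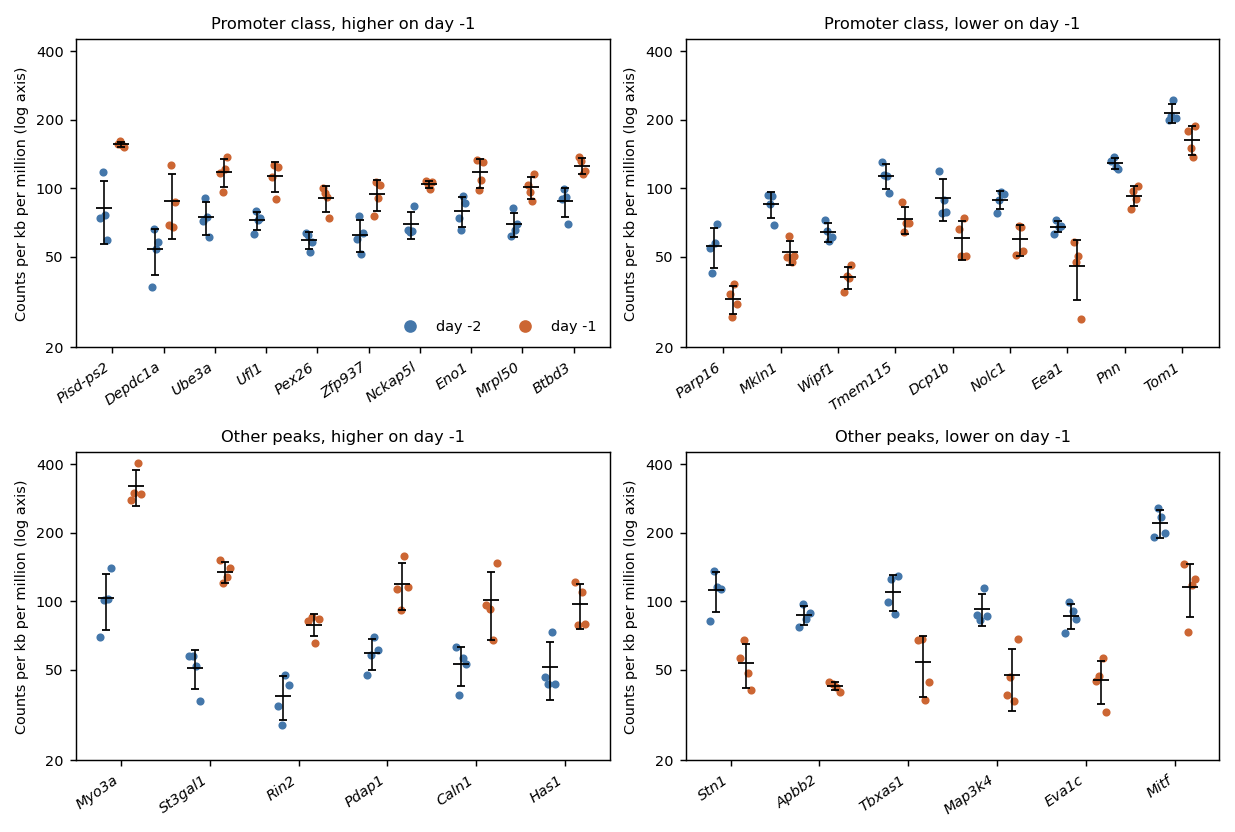
Level of each named peak (counts per kb per 1000000 on a log axis) in the 4 scramble libraries of day -2 (blue) and day -1 (orange), with mean and SD. The days do not overlap at any peak shown, which the rule for naming them required.

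Larger changes lay outside the promoter class. Among other peaks inside or within 10 kb of a gene, the 6 named as higher lay at Myo3a, St3gal1, Rin2, Pdap1, Caln1 and Has1. The peak at chr15:67110448-67111119 lies inside St3gal1, a sialyltransferase of O-linked sugar chains. Levels there were 57.6, 57.5, 52.0 and 36.6 on day -2 and 152, 119.6, 127 and 140.1 on day -1. The day -1 libraries all stood at more than the highest level of day -2, and the log2 change was 1.43 (SE 0.192, edgeR adjusted p = 9.54e-09). Near Rin2, an exchange factor for Rab5, levels at chr2:145887869-145888879 were 34.7, 28.6, 47.5 and 43.0 and then 81.6, 85.2, 65.7 and 83.1. Again no library overlapped, with a log2 change of 1.02 (SE 0.183, edgeR adjusted p = 4.36e-05). The peak near Has1, a hyaluronan synthase of the pericellular matrix, rose by 0.90 (adjusted p = 0.00442) at chr17:17856558-17857178. Pdap1 and Caln1, the latter a calcium-binding protein, rose by 0.98 and 0.94. The spans available for genes do not separate exons from introns.

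The 6 named as lower lay near Stn1, a subunit of the telomere-capping CST complex, and inside Apbb2 (an adaptor of the amyloid precursor protein), Tbxas1 (thromboxane synthase), Map3k4 (a kinase of stress signalling), Eva1c and Mitf, a basic helix-loop-helix factor known from melanocytes and osteoclasts. At Apbb2, chr5:66546855-66547666, levels were 77.0, 96.7, 83.5 and 89.1 on day -2 and 43.9, 43.4, 41.8 and 40.0 on day -1. The libraries of day -1 lay close together and below all of day -2, and the log2 change was -1.03 (SE 0.203, edgeR adjusted p = 0.0003). At Mitf, chr6:97952871-97953311, levels were 192, 257, 235 and 199 and then 146, 73.4, 117 and 125. This peak was the strongest of the 6 on day -2 and fell by 0.94 (SE 0.177, edgeR adjusted p = 0.000135). Stn1 fell by 1.05, Tbxas1 by 0.99, Map3k4 by 0.95 and Eva1c by 0.95. All 12 named peaks outside the promoter class kept their calls when any 1 library was left out and under all 7 settings.

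The 3 smallest p-values among peaks that rose belonged to a pair of neighbours and to 1 very wide peak. The neighbours lie inside Myo3a, a myosin of sensory hair cells, at chr2:22587395-22588299 and chr2:22588662-22590179. The first had levels of 269, 286, 241 and 267 on day -2 and of 703, 939, 820.3 and 582 on day -1, a log2 change of 1.52 (SE 0.117, edgeR adjusted p = 1.81e-24). The second rose by 1.60, to levels of 278 to 404. The wide peak, chr1:24611608-24616138, spans the pseudogenes Gm10222 and Gm10925, and RefSeq lists mt-Atp6, a mitochondrial gene, as a synonym of the latter. Its levels were 555, 793, 571 and 656 on day -2 and 1429.6, 1554, 1994 and 1892 on day -1, a log2 change of 1.42 (SE 0.123, edgeR adjusted p = 4.95e-20). No library of day -1 overlapped those of day -2 at any of the 3 peaks. The ratio of mitochondrial to nuclear counts, each within that day's own peaks, was 4.34-fold higher in the same libraries of day -1. Its part in the change at any of these 3 peaks, the Myo3a pair included, was not tested. With Kdm5c siRNA these peaks rose by 2.26, 1.90 and 1.60.

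A stretch of chromosome 10 supplied a cluster of the higher calls. In 500 kb windows with at least 10 times the median count density, between 107.2 and 119.0 Mb, 45 of 100 tested peaks were higher and 1 was lower, against 2.32% and 2.25% over all. Of these, 44 of the 88 other peaks and 1 of the 12 promoter-class peaks rose, and the median change was 0.36. The median width ratio was 0.844 for the 100 peaks and 0.804 for the 88 other peaks, against 0.879 over all tested peaks. Elsewhere on the chromosome 13 of 713 peaks were higher and 14 lower. The promoter of Mdm2, the ubiquitin ligase of p53, lies in this stretch and had levels of 2670.2, 2759.7, 2926 and 2736 on day -2 and of 3249.8, 3177, 3273 and 3261 on day -1. The promoter class had a median level of 68.8 on day -2. The libraries of the days did not overlap at Mdm2, with a log2 change of 0.22 that was not called (edgeR adjusted p = 0.282). All windows of such density, on chromosome 10 and the others together, held 362 tested peaks, of which 51 were higher and 5 lower. Outside all windows of such density, 207 promoters rose and 54 fell, and 162 other peaks rose and 350 fell. The 100 peaks of the stretch had a median change of 0.09 in the Kdm5c siRNA libraries. The parts of count density and of peak width in the calls of the stretch were not tested.

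Among the adipogenic transcription factors, the promoters of Cebpb and Nr3c1 were higher on day -1. Of 22 listed genes 12 were measured, 2 rose and none fell, with a median of 0.18 against 0.06 over the promoter class, of which 2.74% rose. The list's median width ratio was 0.787, against 0.885 over the promoter class. Cebpb encodes C/EBPβ, the early adipogenic factor. Its promoter peak, chr2:167688633-167689557, had levels of 72.1, 86.7, 69.0 and 95.7 on day -2 and of 144, 72.0, 131 and 129.6 on day -1. Replicate 2 of day -1 lay within the range of day -2 and the other 3 above it. The log2 change was 0.54 (SE 0.148, edgeR adjusted p = 0.0157). The call was lost without day -2 replicate 1 or 3 or day -1 replicate 1, 3 or 4, with values from 0.42 upward. Nr3c1 encodes the glucocorticoid receptor, the target of the dexamethasone in adipogenic cocktails. Its levels, at a promoter on chromosome 18, were 41.1, 30.8, 37.9 and 40.5 and then 71.0, 73.5, 58.0 and 54.1, without overlap. The change was 0.77 (SE 0.243, edgeR adjusted p = 0.0415), the peak was narrower on day -1 (559 against 798 bases), and the call was kept in 1 of the 8 fits that left out a library.

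The factors of the mature fat cell were not called. Pparg, the master regulator of adipogenesis, had levels of 57.5, 57.4, 52.5 and 52.4 on day -2 and of 77.8, 32.0, 80.5 and 53.8 on day -1 (log2 change 0.13, SE 0.238, edgeR adjusted p = 0.83). Its day -1 libraries lay on both sides of those of day -2, and the peak was 458 bases wide against 871. Without the width term its value was -0.61. Cebpa stood at 63.0, 41.0, 45.0 and 53.4 and then at 79.1, 62.0, 62.2 and 44.0 (0.29, SE 0.176), and Cebpd at 57.8, 57.1, 50.6 and 53.1 and then at 46.0, 52.3, 58.8 and 46.3 (-0.11, SE 0.162). Both sets overlapped between days. In the list of mature adipocyte and lipid genes, 1 of 7 measured members fell and none rose, where 0.726% of the promoter class fell and 2.74% rose. That member was Dgat1, which makes triglycerides, at -0.62 (SE 0.184, edgeR adjusted p = 0.0275). Its levels were 136, 114, 84.1 and 111 and then 78.8, 55.6, 93.2 and 63.6, so that day -1 replicate 3 lay above day -2 replicate 3, and the call was kept in 3 of 8 fits that left out a library. The list's median was -0.23. Fasn and Scd1, enzymes of fatty acid synthesis and desaturation named here after their values were seen, had values of 0.04 and -0.28. None of 9 measured anti-adipogenic regulators was called by edgeR (median -0.02). Of these, 1 had an unadjusted p under 0.05, against 3426 of 18223 tested peaks. The most abundant of them, Tcf7l2 (a factor of Wnt signalling) and Hes1 (a repressor induced by Notch), had values of 0.20 (SE 0.168) and 0.21 (SE 0.146).

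Promoters of the cell cycle gave few calls. Over the promoter class 57.4% of peaks had positive values, and 3426 of all 18223 tested peaks had an unadjusted p under 0.05. Of the 23 measured DNA replication genes reported here none was called by edgeR. Among them 18 had positive values and 5 had an unadjusted p under 0.05, with a median of 0.20. The most abundant of them, Gins2 and Gins4 (subunits of the GINS complex of the replicative helicase), had values of 0.36 (SE 0.132) and 0.38 (SE 0.146). The median width ratio of that list was 0.827, below the 0.885 of the promoter class, and its median in the Kdm5c siRNA libraries was -0.02. Of 25 mitotic genes 2 rose and none fell (median 0.08, median width ratio 0.833), where 2.74% of the promoter class rose and 0.726% fell. Bub3, of the spindle checkpoint, rose by 0.57 (adjusted p = 0.0276), a call kept in 4 of the 8 fits that left out a library. Incenp, of the chromosomal passenger complex, rose by 0.68 (adjusted p = 0.00456), but its peak shrank from 1156 to 626 bases, the value without the width term was -0.02, and the call was lost without day -1 replicate 4, which stood at 175 against 94.3 to 104 in the others. No member was called by edgeR among 10 cyclins, cyclin kinases and Myc genes or among 17 cyclin kinase inhibitor, Rb and E2F genes, with medians of 0.08 and -0.03 and with 3 and 0 members at an unadjusted p under 0.05. Mxd4 and Mxi1, partners of Max that oppose Myc, had values of 0.07 and -0.15, and the inhibitors Cdkn2d and Cdkn1b (p27) of 0.14 and -0.24. Cdk6, named after its value was seen, had the highest value of both lists, 0.75 (SE 0.247, edgeR adjusted p = 0.0546).

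Other lists held 1 call or none, where 2.74% of the promoter class rose and 0.726% fell. Usp18, the protease that removes ISG15 and restrains interferon signalling, rose from 97.8, 102, 92.5 and 96.7 to 147, 146, 128 and 165. The libraries did not overlap, and the log2 change was 0.60 (SE 0.151, edgeR adjusted p = 0.00797), kept when any 1 library was left out. It was the 1 call among 15 interferon and RNA sensing genes, whose median was 0.17 and whose widths had a median ratio of 0.739. Vgll3, a cofactor of TEAD proteins, rose by 0.44 (SE 0.125, adjusted p = 0.0206) as the 1 call among 10 genes of the YAP and TEAD pathway (median -0.11). Its call was kept in 5 of the 8 fits that left out a library. Ankrd1, a target of YAP named after its value was seen, had a value of -0.29 (SE 0.259). Rps29 rose by 0.46 (adjusted p = 0.0336) as the 1 call among 30 cytosolic ribosomal protein genes (median -0.04). That call was kept in only 2 of those 8 fits. None was called by edgeR among 10 AP-1 and immediate early genes, 18 matrix and collagen genes reported here, 15 genes of the p53 pathway, 13 of cholesterol synthesis, 18 of the unfolded protein and integrated stress responses and 15 of the circadian clock. Their medians lay between -0.02 and 0.16. Of their members, 2, 3, 2, 2, 5 and 3 had an unadjusted p under 0.05, as did 3426 of the 18223 tested peaks. The values of their most abundant members were as follows: Junb and Fosl2, subunits of AP-1, 0.25 and 0.23; Mmp2, a matrix metalloproteinase, 0.38; Gadd45a, a stress-induced p53 target, 0.03; Msmo1 and Hmgcs1, enzymes of sterol synthesis, -0.08 and 0.07; Edem1 and Eif2ak3 of the unfolded protein response 0.20 and 0.17; and the clock repressors Bhlhe40 and Nr1d2 0.13 and 0.08. No list member was called under all 7 settings, and Cebpb and Dgat1 were the list members called under all 3 treatments of width.

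**Figure D4:**
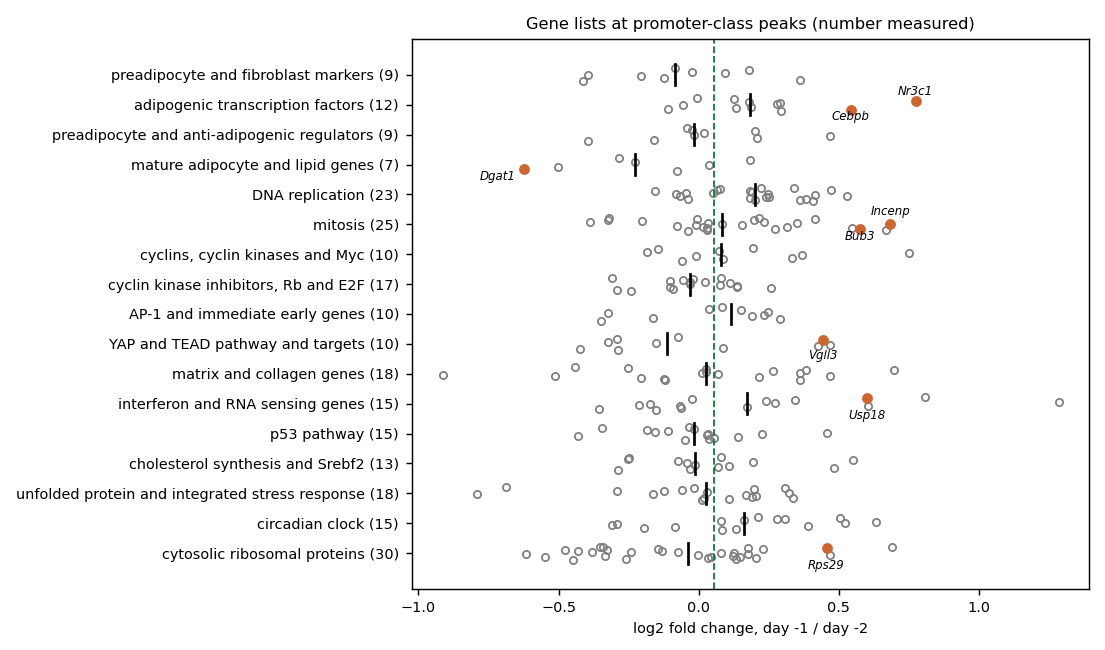
Log2 fold change (day -1 over day -2) of each measured list member at its promoter-class peak; filled orange points were called and are named, open points were not, black bars are list medians and the dashed line is the median of all promoter-class peaks, 0.06. No list holds more than 2 calls, and the list medians shown lie between -0.23 and 0.20.

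The same comparison in the Kdm5c siRNA libraries used other cells of the same days, with no library in common but with the same peaks and widths. Their mean mitochondrial share went from 63.8% on day -2 to 90.0% on day -1, and their matched share from 60.3% to 84.9%. The exact permutation p was 0.0286 for each, and 0.0714 after adjustment. Collection day, peak set and count depth changed together in this arm too and cannot be told apart. There, 327 of 18445 tested peaks were called by edgeR (1.77%), 179 higher (0.97%) and 148 lower (0.802%). Of the 422 peaks that rose in scramble cells 402 (95.3%) had a positive value with Kdm5c siRNA, and of 409 that fell 381 (93.2%) had a negative one. Over all 18092 peaks tested in both arms 66.1% had the same sign, and the log2 changes had Pearson's r = 0.45 across peaks, which share widths and are not independent. Calls of the same direction in both arms numbered 134, which is 41.2% of the 325 Kdm5c siRNA calls and 82 of the 422 risen and 52 of the 409 fallen scramble peaks. Median changes at the scramble calls were smaller with Kdm5c siRNA, 0.39 against 0.67 for risen and -0.45 against -0.84 for fallen peaks, a description, since these peaks were chosen on the scramble values. The class medians with Kdm5c siRNA were 0.0058 for promoters and -0.0033 for other peaks.

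Some named peaks were called in that second arm too. Among the promoter-class peaks named for the largest change these were Pisd-ps2, Ufl1 and Zfp937 alone, all risen ones. Ube3a had a value of 0.25 there (edgeR adjusted p = 0.381). Pex26, Nckap5l, Eno1, Parp16 and Pnn had the opposite sign there, and the others of those promoters kept theirs. Ufl1 rose by 0.67 (SE 0.152, edgeR adjusted p = 0.00925) with Kdm5c siRNA and the St3gal1 peak by 0.79 (adjusted p = 0.0336). The Mitf and Apbb2 peaks fell by 0.73 and 0.72 (adjusted p = 0.0127 and 0.0352). Eno1 had a value of -0.07 (SE 0.148), Pnn of 0.20 (SE 0.14), Pdap1 of -0.13 (SE 0.216) and Cebpb of -0.0050 (SE 0.163) there, none of them called. A direct test of the difference of the day effect between arms called none of 18786 peaks with edgeR, where 1002 had an unadjusted p under 0.05, and none with DESeq2, where 895 did. For Cebpb that difference was -0.55 (edgeR adjusted p = 0.919) and for Pnn 0.67 (adjusted p = 0.889). A difference that misses the threshold does not show that the arms respond alike.

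**Figure D5:**
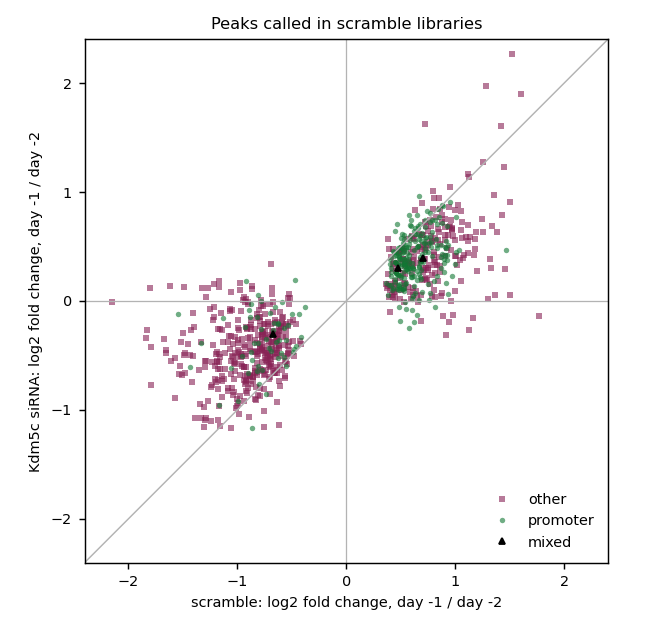
Peaks called in the scramble libraries, with their log2 fold change (day -1 over day -2) in scramble libraries on the horizontal axis and in Kdm5c siRNA libraries on the vertical axis; the diagonal marks equal changes. Most points lie in the quadrants of equal sign (402 of 422 risen, 381 of 409 fallen) and nearer to 0 on the vertical axis.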

How the data were processed

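ATAC-seq counts were taken for 8 scramble libraries and, as a second pair of groups, 8 Kdm5c siRNA libraries. The authors deposited raw counts of reads per peak in 1 table per day, each with its own peak set. Their second deposited table per day holds a signal, the same counts divided by 1 constant per library, for peaks with a gene name, and only its gene names were used. Per the submitters' processing notes, MACS2 2.1.1, Bowtie2 2.2.9, DESeq2 1.24.0, HTSeq 0.9.1 and cutadapt 2.3 were used with GRCm38 (mm10). Not given in the sources used here: settings, pooling for peak calling, treatment of duplicates and any shift of cut sites.

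Nuclear peaks of the days were matched 1 to 1 with bedtools 2.31.1 at 50% reciprocal overlap. edgeR 4.0.16 gave quasi-likelihood F tests on the counts (filterByExpr, matched nuclear totals with TMM factors, log peak width in the offset), with Benjamini-Hochberg adjustment over all tested peaks and calls under 0.05. The SE is the absolute log2 change divided by the root of F and can be smaller than the scatter between libraries. Named peaks were called peaks above the median abundance, with widths within 1.2 times and days that did not overlap: the 10 promoter-class and 6 other peaks (inside or within 10 kb of a gene, without model-only symbols) of largest change in each direction. From each gene list the 3 called members of largest change were named, or otherwise the 2 most abundant, and Pparg, Cebpa, Cebpb and Cebpd were always given. Members and lists were chosen with earlier results of these data known. Alternatives were other size factors (RLE, none, all nuclear totals, cyclic loess), no width, 80% overlap, widths within 1.1 times, no count filter, DESeq2 1.42.0, a 1.5-fold minimum (glmTreat), a replicate block and leaving out each library. An offset that follows the width ratio was chosen after seeing the data. The 7 settings compared for stability were the fit used here, RLE, matched totals alone, cyclic loess, no width, the width-ratio offset and DESeq2. Totals over all nuclear peaks were left out of these 7. The scripts were tested on simulated data. Day 0 was not analysed here, and results for 2 list genes are not reported here.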

Additional observations from a re-analysis of the deposited data

Results flagged for a closer look

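Of 144 groups of 4 libraries checked at the named peaks and in the library shares, 9, all at named peaks, held a library whose gap to the nearest other exceeded Dixon's 95% limit, where chance alone gives about 1 in 20. On day -2, replicate 3 stood high at Tom1 (a level of 244 against at most 206 in the other 3), Has1 (73.0 against 43.1 to 46.3), Map3k4 (114 against 82.2 to 86.8) and Hes1 (107 against 85.1 to 88.5). Replicate 4 of day -2 stood high at Nckap5l (83.6 against 64.0 to 65.3), and replicate 2 at Mxi1 (149 against 103 to 104). On day -1, replicate 3 stood high at the Myo3a peak chr2:22588662-22590179 (404 against 278 to 298) and at Bhlhe40 (253 against 233 to 234), and replicate 4 at Incenp (175 against 94.3 to 104). The Incenp call was lost without that library (adjusted p of edgeR 0.174), whereas the calls at Myo3a, Has1 and Map3k4 were kept without any 1 library.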

How the results depend on the processing

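Peak sets, widths and nuclear depth changed with the day, so a fold change holds only relative to the scaling and width treatment named. Calls numbered 422 higher and 410 lower (promoters 208 and 55, other peaks 212 and 354). They became 974 and 271 with matched totals alone (promoters 524 and 27, other higher 444), 9724 and 47 with all nuclear totals (5251 and 2, other 4425 and 45), 807 and 735 without width (332 and 163, other 465 and 569), 100 and 95 at 80% overlap (46 and 6, other 53 and 89), 49 and 55 with widths within 1.1 times (16 and 2, other 33 and 53), 277 and 219 with DESeq2 (128 and 21, other lower 197), 5 and 1 at a 1.5-fold minimum (0 and 0, other 5 and 1) and 184 and 196 with the offset that follows the width ratio (64 and 16, other 119 and 179). Fewer peaks were tested at 80% overlap (8075) and within 1.1 times (4933). The cause of the other shifts was not tested. The Kdm5c siRNA calls went from 327 to 1155 without width and 134 with the width-ratio offset. The difference of class medians, 0.0946, was 0.0554 with cyclic loess, 0.0750 at 80% overlap and 0.0681 within 1.1 times. At 80% overlap the promoter share differed by -0.587 and the X share by -0.0130 percentage points.

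Leaving out 1 library gave 244 to 353 higher and 212 to 315 lower calls (promoters 116 to 166 and 22 to 44, other peaks 122 to 197 and 186 to 276). The total fell by over 1.5 times without day -2 replicate 2 (467), 3 (456) or 4 (520). The Kdm5c siRNA calls ranged from 128 to 287, and the difference of class medians from 0.0828 to 0.0997. Differences between days were 17.8 to 19.7 points for the mitochondrial share, 22.4 to 23.5 for the matched share, -0.202 to 0.567 for the promoter share, 3.22 to 4.17 for the 1000 most abundant peaks and -0.00976 to 0.0489 for chromosome X, where 3 against 4 libraries cannot reach an exact p of 0.05. Of 41 called named peaks, 18 kept their call in all 8 such fits and 23 lost it in at least 1.

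The labels do not pair the libraries by replicate number. Same-number correlations were 0.034, -0.0014, -0.019 and -0.036 in scramble libraries, where only replicate 1 correlated best with its own number. With Kdm5c siRNA they were 0.0011, 0.064, -0.0021 and 0.015, and replicates 2 and 4 correlated best with their own number. With the replicate block, 375 peaks were higher and 382 lower, 741 of them shared with the fit without it. The Kdm5c siRNA calls were 452, against 327 without the block, and the difference between arms had 0.

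The sign turned at these named peaks (log2): with all nuclear totals Pnn 0.086, Tom1 0.17, Col1a2 0.43, Mxi1 0.41, Cdkn1b 0.32, Msmo1 0.48, Flt1 0.47 and Cebpd 0.45; without width Incenp -0.017, Mxd4 -0.12, Mxi1 0.31, Cdkn1b 0.033, Junb -0.35, Mmp2 -0.24, Msmo1 0.20 and Pparg -0.61; with cyclic loess Mxd4 -0.028, Mdm2 -0.049, Gadd45a -0.13, Hmgcs1 -0.055, Bhlhe40 -0.061 and Nr1d2 -0.051. With the width-ratio offset it turned at Mxd4 -0.017, Mxi1 0.064, Msmo1 0.030 and Pparg -0.12, and with matched totals alone at Msmo1 0.025 and Flt1 0.023. Leaving out 1 library gave -0.016 to 0.26 at Cdkn2d, -0.027 to 0.13 at Gadd45a, -0.014 to 0.19 at Hmgcs1 and -0.075 to 0.15 at Nr1d2, each lowest without day -1 replicate 4. It gave -0.22 to 0.054 at Flt1, positive without day -2 replicate 3, and -0.041 to 0.36 at Pparg, lowest without day -1 replicate 1. Of these only Pnn, Tom1 and Incenp had been called.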
